A study of Homo sapiens with 2 samples.

Results

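The genes described here are 6 metallothioneins (MT1E, MT1F, MT1G, MT1H, MT1X and MT2A), the zinc-sensing transcription factor MTF1 and the zinc transporters SLC30A1, SLC39A10 and SLC39A14. They were taken as the probe sets that name 1 of these 10 genes alone in the platform annotation, which gave 20 of the 54675 probe sets on the array, for 10 of the 19775 genes that can be named this way. The genes were chosen by function, with their ratios between these 2 arrays already known, so these ratios are given as a description. The 2 arrays compare HT-29 cells, a line from a human colorectal adenocarcinoma, transfected with a pool of siRNAs against MYC (MYC siRNA, 1 array) with HT-29 cells transfected with a pool of non-targeting siRNAs (control siRNA, 1 array). Both groups received 20 nM siRNA for 24 h by reverse transfection and were used after 48 h; the treatment field of the control sample reads None, and the non-targeting pool comes from the protocol. Since each group is 1 array, the differences could not be checked in replicates, and there are no tests.

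Metallothioneins are small cytosolic proteins very rich in cysteine, which bind zinc and copper and can also bind cadmium. When free zinc rises, MTF1 moves to the nucleus and binds metal response elements in the promoters of the metallothionein genes and of SLC30A1. SLC30A1 (ZnT1) exports zinc across the plasma membrane, whereas SLC39A10 (ZIP10) and SLC39A14 (ZIP14) bring zinc into the cytosol, and ZIP14 also carries iron and manganese.

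All 6 metallothionein genes were lower with MYC siRNA, as were 46.5% of all genes above a signal of 50. The probe sets behind these 6 values cannot tell the near-identical genes apart, so they are not 6 separate measurements. Signals under 50, the floor, were set to 50, and each gene was read from its brightest probe set. The log2 ratio, MYC siRNA over control siRNA in all that follows, lay between -1.38 and -0.69 over the 6 genes, with a median of -0.96, against a median of 0.03 over the 8917 genes above 50 in at least 1 array. MTF1 and SLC39A10 differed little between the arrays, SLC30A1 was higher and SLC39A14 lower, both by less than 1.5-fold. A probe set is called a DOWN DEG (differentially expressed gene) at a ratio of at most 0.5 and an UP DEG at a ratio of at least 2. Of the 17 member probe sets above 50, 3 were DOWN DEGs, all of them metallothioneins, and 0 were UP DEGs, against 0.607% and 2.19% of the 17127 probe sets above 50.

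**Figure D1:**
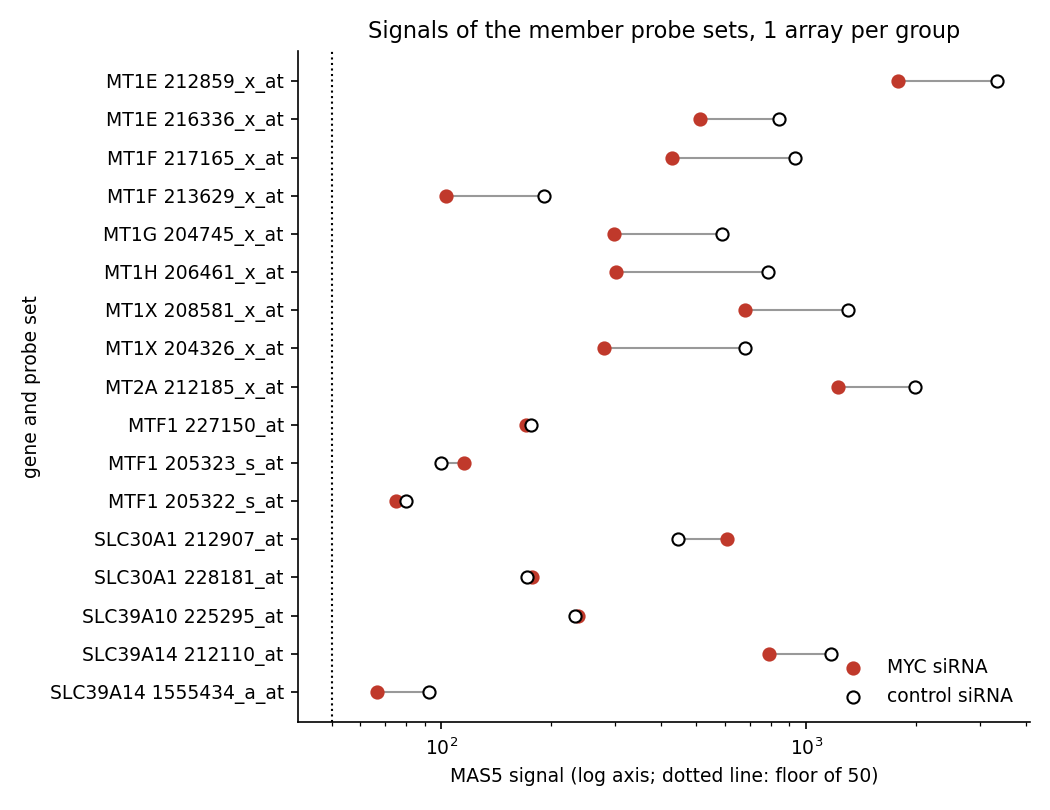
MAS5 signal (x axis, log scale) of each of the 17 member probe sets above 50 (y axis) with MYC siRNA (red) and control siRNA (open circles), 1 array each, with the floor of 50 dotted. All 9 metallothionein probe sets are lower with MYC siRNA, while those of MTF1 and SLC39A10 nearly coincide.

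MT1H, one of the metallothionein 1 isoforms, had the lowest ratio. Its single probe set (206461_x_at) had a signal of 302 with MYC siRNA and 786 with control siRNA, which is 2.60-fold lower. It ranked 7 from the lowest ratio of all 17127 probe sets above 50 and 1 among the 1706 whose names end in _x_at. Of the 1313 probe sets whose mean log2 signal lay within 0.25 of its own, it was the only one with a ratio this low.

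MT1X, a metallothionein 1 isoform at one end of the gene cluster, was measured by 2 probe sets, both lower with MYC siRNA. The brighter (208581_x_at) had a signal of 680 with MYC siRNA and 1299 with control siRNA (1.91-fold lower). The other (204326_x_at) had 278 with MYC siRNA and 680.1 with control siRNA (2.44-fold lower) and was a DOWN DEG. The 2 probe sets differed by 0.35 on the log2 scale, so whether MT1X passes 2-fold depends on which of them is read.

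MT1F, another isoform of the same group, likewise had 2 probe sets, both lower. The brighter (217165_x_at) read 430.1 with MYC siRNA and 933 with control siRNA, 2.17-fold lower and a DOWN DEG. The dimmer (213629_x_at) read 103 with MYC siRNA and 191 with control siRNA, 1.85-fold lower. Taken as the mean of the linear ratios over both probe sets, the log2 ratio of MT1F was -0.998 and thus just short of 2-fold, against -1.12 from the brighter one.

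MT1G lay just outside the 2-fold limit. Its probe set 204745_x_at had a signal of 298 with MYC siRNA and 588 with control siRNA, 1.97-fold lower. A second probe set of MT1G (210472_at), the only one of these 6 genes that does not end in _x_at, was at 0.232 with MYC siRNA and 0.515 with control siRNA. Both values are far under 50, and no fold is given for it. The lower value of MT1G thus rests on its _x_at probe set alone.

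MT1E, a further isoform of group 1, and MT2A, the human metallothionein 2 gene, had the smallest differences when each gene was read from its brightest probe set. MT1E had 1784 with MYC siRNA and 3325 with control siRNA in its brighter probe set (212859_x_at, 1.86-fold lower). In the dimmer one (216336_x_at) it had 511 with MYC siRNA and 843 with control siRNA (1.65-fold lower). The only probe set of MT2A (212185_x_at) had 1225 with MYC siRNA and 1983 with control siRNA, 1.62-fold lower, the smallest difference of the 9 probe sets. The 2 probe sets of MT1E differed by 0.18 on the log2 scale and those of MT1F by 0.23.

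All 9 metallothionein probe sets above 50 were lower by at least 1.5-fold, as were 5.83% of all probe sets above 50. Among probe sets of like mean signal, between 0.0762% (MT1H) and 3.61% (the dimmer probe set of MT1E) lay as low or lower, the probe set itself included. Probe sets of the same gene differed from each other in log2 ratio with an SD, pooled over 3604 genes in 3 groups of brightness, of 0.25 for dim, 0.22 for middle and 0.17 for bright genes. This SD is the one error these arrays give and leaves out the variation between cultures; the smallest metallothionein log2 ratio, -0.69 for MT2A, was larger than it. At gene level, MT1F and MT1H were DOWN DEGs, 2 of 6 metallothioneins and 2 of the 10 genes, against 0.695% of genes above 50.

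**Figure D2:**
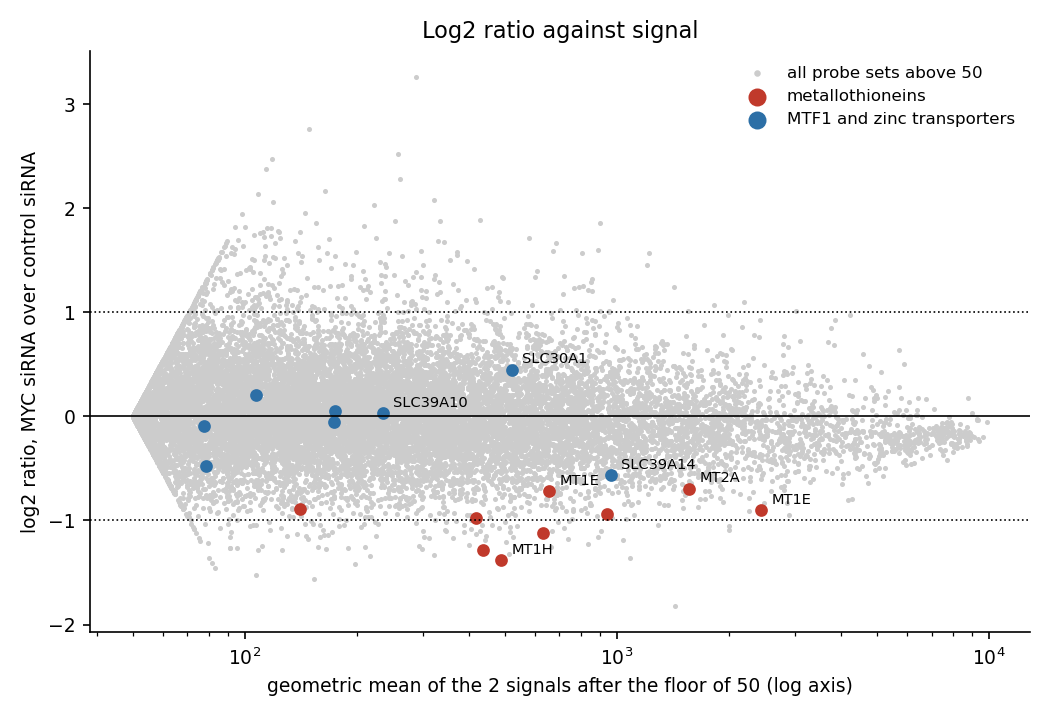
Log2 ratio (y axis, MYC siRNA over control siRNA) against the geometric mean of both signals after the floor of 50 (x axis, log scale) for the 17127 probe sets above 50 (grey), with 2-fold dotted. The 9 metallothionein probe sets (red) lie between -1.38 and -0.69 in the lower part of the cloud, and the 8 of MTF1 and the zinc transporters (blue) lie between -0.56 and 0.45.

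All 9 metallothionein probe sets carry the suffix _x_at, which marks probes that can also bind other, closely related transcripts. The ratios are therefore of the metallothionein family as these probes see it, and which of the near-identical genes gave the signal cannot be told apart. Another such probe set names MT1HL1, a metallothionein-like gene on chromosome 1 outside the cluster, and had 690 with MYC siRNA and 1568 with control siRNA (2.27-fold lower). Of the 1706 _x_at probe sets above 50, 0.938% were DOWN DEGs and their median log2 ratio was -0.06. Those DOWN DEGs number 16, of which 3 are metallothionein probe sets and 1 is that of MT1HL1. No metallothionein gene kept a probe set above 50 once those ending in _x_at or _s_at were left out. The remaining metallothioneins with a probe set of their own, MT1M, MT3 and MT4, were under 50 in both arrays, and 6 further genes or pseudogenes of the family (MT1A, MT1B, MT1DP, MT1IP, MT1JP and MT1L) have none that names them alone.

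The metallothionein genes lie next to each other on chromosome 16, and the promoters of some of them are in the RefSeq table used here (GRCh38.p14). Those of MT1E, MT1F and MT1G are not in it. The _x_at probe sets of MT1H, MT2A and MT1X, which cannot tell the family members apart, were lower with MYC siRNA. The probe sets of SLC30A1 above 50 were not lower. Whether MTF1 has a part in any of these ratios was not tested. The 160 bases before the transcript start are shown for MT1H, MT2A, MT1X and SLC30A1. They lie on GRCh38.p14 at chr16:56669654-56669813 (MT1H, plus strand), chr16:56608424-56608583 (MT2A, plus strand), chr16:56682310-56682469 (MT1X, plus strand) and chr1:211579162-211579321 (SLC30A1, minus strand). Capitals mark matches on either strand to the core of the metal response element, searched as TGCACNC or TGCGCNC.
MT1H: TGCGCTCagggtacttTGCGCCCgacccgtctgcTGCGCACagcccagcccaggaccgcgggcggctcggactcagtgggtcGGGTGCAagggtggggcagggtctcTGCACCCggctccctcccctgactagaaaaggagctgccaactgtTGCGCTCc
MT2A: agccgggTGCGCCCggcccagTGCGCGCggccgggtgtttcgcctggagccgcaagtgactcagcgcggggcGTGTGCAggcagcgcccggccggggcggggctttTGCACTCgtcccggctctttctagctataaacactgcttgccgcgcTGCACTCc
MT1X: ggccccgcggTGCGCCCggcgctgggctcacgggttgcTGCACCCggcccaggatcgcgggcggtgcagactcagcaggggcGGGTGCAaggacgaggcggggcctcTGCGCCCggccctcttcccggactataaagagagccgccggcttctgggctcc
SLC30A1: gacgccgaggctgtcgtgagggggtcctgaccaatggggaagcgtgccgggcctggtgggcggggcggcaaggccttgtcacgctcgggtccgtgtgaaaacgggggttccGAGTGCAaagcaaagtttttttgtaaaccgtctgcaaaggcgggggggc

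The window of MT1H held 6 matches, that of MT2A 5 and that of MT1X 4, whereas that of SLC30A1 held 1. The same window held 2 matches in MT1B, which has no probe set of its own, and 1 in MT4, which was under 50 in both arrays. Of the 35116 promoters in the table, 18.2% held at least 1 match in the same window, 3.65% at least 2, 0.171% at least 4 and 0.0399% at least 5. In MT1H and MT1X a match on the opposite strand began 78 bases before the start and one on the gene strand 53 bases before it. The corresponding pair in MT2A began 88 and 54 bases before the start, and the single match of SLC30A1, on the opposite strand, began 49 bases before it. The windows of MTF1 and of both annotated starts of SLC39A10 held 0 matches. The promoter sequences run from 250 bases before the start to some bases after it. Over this whole length, bases after the start included, MT1H and MT2A held 8 matches and MT1X 4. MT1B and MT4 held 3 and SLC30A1 held 2, while 1 of the SLC39A10 starts held 1 and MTF1 held 0. The share of all promoters was not counted for this longer stretch. CACGTG, the E-box bound by MYC with MAX, was in none of the windows of MT1H, MT2A, MT1X, SLC30A1, MTF1 and SLC39A10. It was in only 4.77% of all promoters, so most promoters lack it too. It was not counted over the longer stretch, and binding by MYC was not tested. No match to the metal response element overlapped another match. A match is a run of letters and not a measured binding site, and a link between the number of matches and the ratios was not tested.

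**Figure D3:**
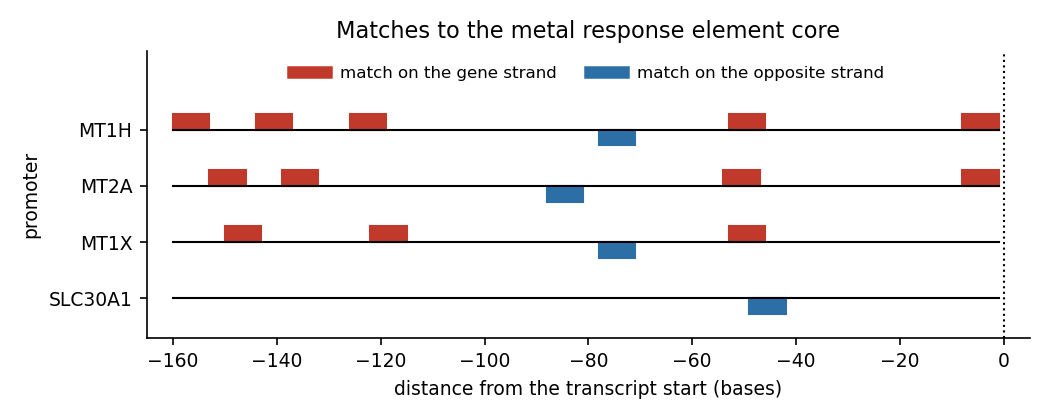
Position of each match to the core of the metal response element in the 160 bases before the transcript start (x axis, bases) of 4 promoters (y axis), on the gene strand (red, above the line) or the opposite strand (blue, below). MT1H, MT2A and MT1X hold 6, 5 and 4 matches and SLC30A1 holds 1.

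MTF1, the factor that binds these elements, was nearly level between the arrays. Its brightest probe set (227150_at) had a signal of 170.2 with MYC siRNA and 176 with control siRNA (1.03-fold lower). The other 2 had 115 with MYC siRNA and 100.04 with control siRNA (205323_s_at, 1.15-fold higher) and 75.0 with MYC siRNA and 80.0 with control siRNA (205322_s_at, 1.07-fold lower). The 3 probe sets went both ways and each log2 ratio was smaller than the SD given above for genes of its brightness. The mean over the 3 was 0.02 on the log2 scale, with the opposite sign to the brightest probe set.

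SLC30A1, the zinc exporter that MTF1 is known to induce, was not lower in either of its probe sets above 50. In the brighter (212907_at) the signal was 609 with MYC siRNA and 445 with control siRNA, 1.37-fold higher, and 12.0% of probe sets of like mean signal were at least as high. In the dimmer (228181_at) it was 178 with MYC siRNA and 172 with control siRNA, 1.03-fold higher. The third probe set (242716_at) was under 50 in both arrays. SLC30A1 thus lay on the other side of 0 from all 6 metallothioneins, while its higher level rests on 1 of 2 probe sets. A part of MTF1 in this difference was not tested.

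The importers SLC39A14 and SLC39A10 differed from each other. SLC39A14 had 790.3 with MYC siRNA and 1167 with control siRNA in its brightest probe set (212110_at), 1.48-fold lower. A second (1555434_a_at) had 66.7 with MYC siRNA and 92.7 with control siRNA, 1.39-fold lower, and the third (1555433_at) was under 50 in both. Both measured probe sets of SLC39A14 were thus lower by a like amount, short of 1.5-fold, and 8.43% and 10.5% of probe sets of like mean signal were at least as low. SLC39A10 had 237 with MYC siRNA and 232 with control siRNA in its only probe set (225295_at), a log2 ratio of 0.03, which became -0.02 after quantile normalization.

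The wider zinc transporter families were not lower together with the metallothioneins. Of the 10 ZnT genes (SLC30A), most of which move zinc out of the cytosol, 5 were above 50. Of these, 4 were higher, 1 was lower and 0 passed 2-fold, with a median log2 ratio of 0.25. SLC30A5, a transporter of the early secretory pathway, had 548 with MYC siRNA and 371 with control siRNA (1.48-fold higher), although its other probe sets above 50 ranged from 1.12-fold higher to at least 2.18-fold lower, the last with MYC siRNA under 50. SLC30A9 and SLC30A7 were 1.19-fold and 1.15-fold higher. These counts stand beside 53.5% of all genes above 50 that were higher and 46.5% that were lower.

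Of the 14 ZIP genes (SLC39A), which bring zinc into the cytosol, 11 were above 50, of which 8 were higher and 3 lower, with a median log2 ratio of 0.11. SLC39A11 was the only UP DEG among them, with 210 with MYC siRNA and 94.6 with control siRNA (2.22-fold higher), against 2.73% of genes above 50. SLC39A13, a zinc transporter of intracellular vesicles and the Golgi, had 138 with MYC siRNA and 80.0 with control siRNA (1.72-fold higher), and its second probe set was 1.37-fold higher. SLC39A6, a close relative of SLC39A10, was lower in all 4 of its probe sets, by 1.38-fold in the brightest (931 with MYC siRNA and 1283 with control siRNA) and by up to 1.48-fold. The lower ZIP genes were thus SLC39A14, SLC39A6 and SLC39A7, the last by 1.03-fold.

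**Figure D4:**
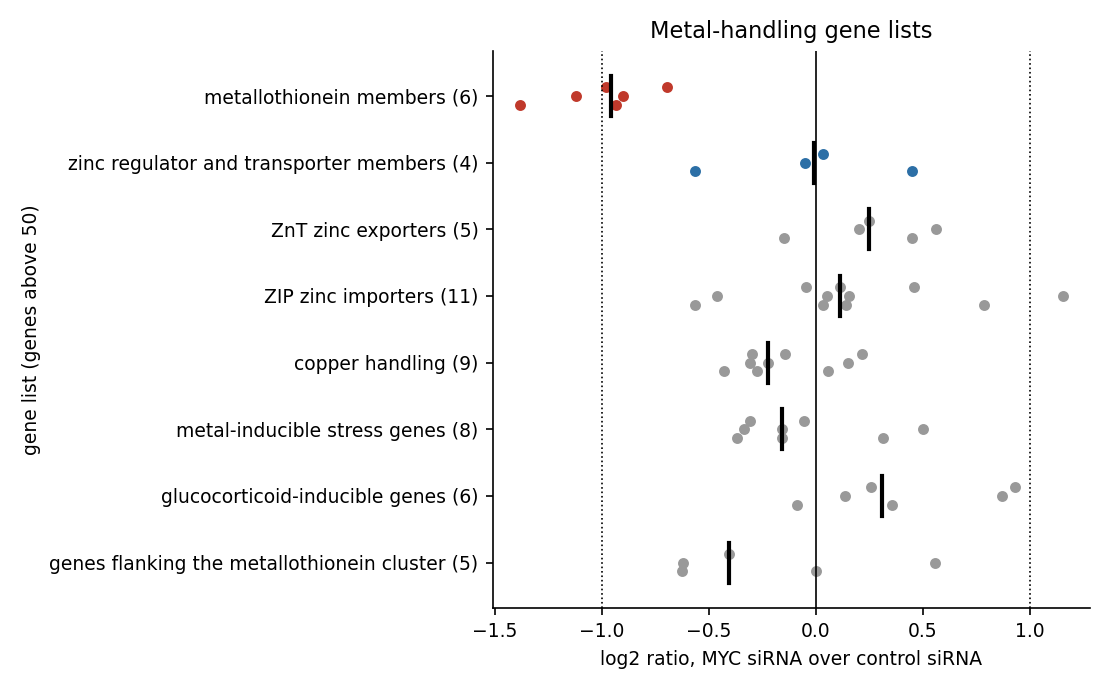
Log2 ratio (x axis, MYC siRNA over control siRNA) of genes above 50 (points) in 8 gene lists (y axis, number of genes in brackets), with list medians as black bars and 2-fold dotted. The metallothioneins (red) have a median of -0.96, against -0.01 for MTF1 and the 3 zinc transporters (blue), 0.25 for the ZnT and 0.11 for the ZIP genes.

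Genes on either side of the metallothionein cluster on chromosome 16 showed both directions. Of 9 such genes, 5 were above 50, with 3 lower, 1 higher, 1 (HERPUD1) level to 3 digits, 0 past 2-fold and a median log2 ratio of -0.40, beside 46.5% of all genes above 50 that were lower and 53.5% that were higher. NUP93, a protein of the nuclear pore and the nearest of these genes on one side, had 237 with MYC siRNA and 365 with control siRNA (1.54-fold lower). On the other side BBS2, of the complex that sorts cargo to cilia, had 179.9 with MYC siRNA and 122 with control siRNA (1.47-fold higher), and its neighbour OGFOD1, a hydroxylase of a ribosomal protein, had 254 with MYC siRNA and 390.1 with control siRNA (1.54-fold lower). NUDT21, beyond OGFOD1, had 1304 with MYC siRNA and 1725 with control siRNA (1.32-fold lower) and was lower in all 3 of its probe sets. HERPUD1, beyond NUP93, was level at 445 with MYC siRNA and 445 with control siRNA. None of these 5 genes had a log2 ratio as low as the -0.69 of MT2A. However, NUP93 and OGFOD1, both at -0.62, were nearer to it than the SD between probe sets of 0.22 for genes of their brightness. They are thus not set apart from MT2A.

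Over all genes the log2 ratio was lower where the signal was higher. Its median was 0.15 among the dimmest and -0.10 among the brightest genes when these were split into 5 equal groups. After loess on mean signal the median of the metallothioneins was -0.92. MYC itself, the target of the siRNA, had 1640 with MYC siRNA and 1963 with control siRNA in its only probe set, 1.20-fold lower. This is an mRNA value, while the paper reports the knockdown of MYC by immunoblot, at the protein level. The signal exceeded 50 in 16571 probe sets with MYC siRNA and 16074 with control siRNA, and ACTB, whose 3′ over 5′ signal rises as RNA degrades, had a value of 1.14 with MYC siRNA and 1.16 with control siRNA, and GAPDH one of 1.017 with MYC siRNA and 1.002 with control siRNA. Of 9 markers of colon epithelium, 7 were above 50, while CDX1 and CDX2 were under 50 in both arrays. Of these 7, 5 were higher, 2 lower and 0 past 2-fold. Of all genes above 50, 53.5% were higher, 46.5% lower, 0.695% DOWN and 2.73% UP DEGs. LGALS4 had 3056 with MYC siRNA and 1771 with control siRNA (1.72-fold higher), KRT20 and VIL1 were 1.41-fold and 1.31-fold higher and EPCAM was 1.14-fold lower; their part in the metallothionein ratios was not tested. Of 10 leukocyte, fibroblast and endothelial markers with a probe set, only COL1A1 was above 50, in 1 of its 5 probe sets.

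**Figure D5:**
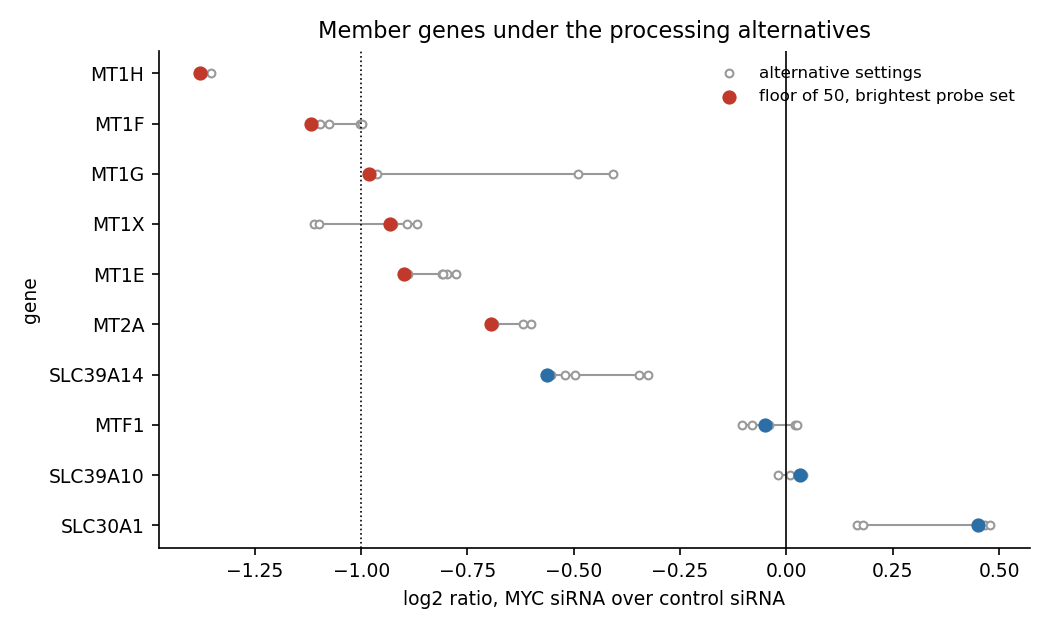
Log2 ratio (x axis, MYC siRNA over control siRNA) of each of the 10 genes (y axis) from its brightest probe set with a floor of 50 (filled) and under the processing alternatives (open), with 2-fold lower dotted. MT1H stays between -1.38 and -1.35, all metallothioneins stay below 0, and MTF1 and SLC39A10 cross 0.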

How the data were processed

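The authors measured total RNA of 2 HT-29 cultures on Affymetrix whole-genome human arrays, 1 array per group. The deposited intensity values are linear MAS5 signals from affy 1.40.0, with each array scaled by the authors to a mean target level of 100. The values are not floored, not logged and not normalized to each other. After trimming 2% of probe sets at each end, both arrays had a mean of 100. The number of arrays limits the precision.

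Signals under 50 were set to 50 and the log2 ratio was taken as MYC siRNA over control siRNA, with the limits of at least 2 and at most 0.5 of the methods. A gene took its probe set of highest mean signal. No fold is given for the 37548 probe sets that did not exceed 50 on either array. Of the probe sets, 41097 name 1 gene, 1801 several and 11777 none; symbols were updated through gene identifiers to RefSeq of GRCh38.p14. No probe set names a metallothionein together with another gene. Promoter sequences are from RefSeq (GRCh38.p14) and matched 6 of the 10 genes. The calculations were tested on simulated arrays.

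The members and the gene lists were chosen with earlier results of these data known. Named are all members and MYC, and from each other list up to 4 genes of largest ratio with a signal of at least 100; other named genes were chosen after their values were seen. Of the list symbols, 11 matched no gene. Alternatives were floors of 25 and 100, no floor with 1 added, median centring, quantile normalization, loess (span 0.3), leaving out _x_at and _s_at probe sets, a brighter array of at least 100, means over probe sets, and fold limits of 1.5 and 3; those for counts over all probe sets and for the other lists were chosen after seeing the data. Python 3.11.15, numpy 2.4.6, pandas 2.3.3, statsmodels 0.14.6 and matplotlib 3.10.9 were used.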

Additional observations from a re-analysis of the deposited data

How the results depend on the processing

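The median log2 ratio of the 6 metallothioneins stayed between -0.96 and -0.90 under the 9 alternatives that gave a value. Each of the 6 genes stayed lower in all 9, although their probe sets above 50 cannot tell the family members apart. Without the probe sets ending in _x_at or _s_at no metallothionein was above 50, so there was no median, and the member DOWN DEGs numbered 0 in place of 3, beside 52 DOWN and 219 UP DEGs in all. At a fold limit of 1.5 the member DOWN DEGs were 9, beside 998 DOWN and 1563 UP DEGs in all, and at a limit of 3 they were 0, beside 1 DOWN and 53 UP. With floors of 25 and 100 and with no floor, all UP DEGs numbered 640, 184 and 620, against 375, while the member counts stayed at 3 DOWN and 0 UP. The mean over probe sets gave MT1G -0.49 (log2) or -0.41 (linear), because its second probe set under 50 counts as unchanged, and likewise SLC30A1 0.17 or 0.18 and SLC39A14 -0.35 or -0.32, while MT1X passed 2-fold at -1.11 or -1.10. The medians of the ZnT and ZIP genes kept their sign and ranged from 0.12 to 0.29 and from 0.05 to 0.12. The median over MTF1 and the 3 transporters, -0.01, lay between -0.06 and 0.03 and crossed 0. No paired analysis was possible because each group is 1 array.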

Other observations

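Copper, which metallothioneins also bind, is handled by a further set of proteins, and of 13 such genes 9 were above 50, with 6 lower, 3 higher and 0 past 2-fold with MYC siRNA (median log2 ratio -0.22). Of all genes above 50, 46.5% were lower, 53.5% higher, 0.695% DOWN and 2.73% UP DEGs, which holds as the background of each list here. COX11 and SCO1, which deliver copper to cytochrome c oxidase, were 1.34-fold and 1.21-fold lower, although a second probe set of COX11 had a log2 ratio of 0.48, and SCO2 was 1.24-fold lower. The copper importer SLC31A1 had 281 with MYC siRNA and 346 with control siRNA (1.23-fold lower), while its second probe set was 1.10-fold higher.

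Metallothioneins are also known to be induced by heavy metals with heat shock and antioxidant genes, and by glucocorticoids. Of 8 measured metal-inducible stress genes, 6 were lower, 2 higher and 0 past 2-fold (median log2 ratio -0.16). HMOX1, the heme oxygenase induced by cadmium, had 346 with MYC siRNA and 245 with control siRNA (1.41-fold higher), SLC7A11, the cystine importer, was 1.24-fold higher, and the chaperone HSPH1 was 1.29-fold lower. TXNRD1, a thioredoxin reductase, was 1.26-fold lower. Of 6 measured glucocorticoid-inducible genes, 5 were higher, 1 lower and 0 past 2-fold (median log2 ratio 0.31). TSC22D3 had 154 with MYC siRNA and 81.1 with control siRNA (1.91-fold higher), from 1 of its 3 probe sets, and SGK1 had 978 with MYC siRNA and 536 with control siRNA (1.83-fold higher). DUSP1 and CEBPD were 1.28-fold and 1.20-fold higher. Under the 10 alternatives the medians kept their sign but not their size. They ranged from -0.25 to -0.04 for copper handling, from -0.16 to -0.05 for the metal-inducible genes and from 0.13 to 0.32 for the glucocorticoid-inducible genes, smallest for the last list under both means over probe sets and, at 0.14, without _x_at and _s_at probe sets.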
